A study of Rattus norvegicus with 24 samples.

Results

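The response of the neonatal rat liver to desisobutyryl ciclesonide was measured by comparing 4 drug libraries with 4 vehicle libraries. Members were taken by their sample titles, 8 of the 24 libraries of the series. All pups were wild-type (WT) Sprague Dawley rats, injected under the skin once a day for 5 days, starting on postnatal day 1. Organs were collected on postnatal day 6, 24 hours after the last dose. The vehicle group received 2.5% ethanol, and the drug group received desisobutyryl ciclesonide at 1.25 mg/kg. A further group of 4 liver libraries, from pups given dexamethasone at 0.1 mg/kg, shared the estimate of spread, and its values are given beside the drug's at a dose that differed. Lung libraries of the vehicle and drug groups, 4 each, were used for a comparison between tissues. The labels used here give neither the sex nor the litter of a pup, so p-values measure the spread between these libraries.

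Desisobutyryl ciclesonide is the active form of ciclesonide, an inhaled corticosteroid given as an inactive ester and cleaved by esterases in tissue. Such compounds bind the glucocorticoid receptor, a ligand-activated transcription factor that enters the nucleus and raises some genes while repressing others. In liver this receptor is known for its control of glucose production, amino acid breakdown and the maturation of hepatocytes around birth. The deposited tables give Ensembl identifiers without gene names, and no name table at hand pairs them. Genes are therefore given by identifier, their roles are not stated, and hepatocyte or blood cell markers could not be read. In whole tissue, fewer cells of a type and less RNA per cell cannot be told apart.

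The 8 libraries held 16724129 to 26194384 gene counts, and 16491 to 17080 genes had a count. Drug replicate 4 was the deepest, while the other 3 drug libraries held 17111433 to 17379969. The deposited names number the drug libraries in a series apart from the vehicle libraries. Read categories also differed: entries that aligned outside annotated genes made up 7.29% ± 0.637 (SD, n = 4) with the drug and 10.5% ± 0.382 with vehicle. Unaligned entries made up 1.10% ± 0.258 and 2.70% ± 0.524, and entries aligned to several places 3.68% ± 0.294 and 3.09% ± 0.0709. In each of these 3 categories the groups did not overlap (two-sided exact permutation p = 0.0286, the smallest that 4 against 4 allows, and p = 0.0476 after adjustment over 5 categories). Library series and drug coincide, so their parts in any result below cannot be told apart. In dexamethasone liver these categories stood at 11.5% ± 0.25 (outside genes), 2.2% ± 0.23 (unaligned) and 2.66% ± 0.177 (several places). Each mean lay nearer to vehicle than to the drug, so any contrast between the drugs below carries that difference too.

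Genes called changed with the drug were a small part of the liver transcriptome, and the larger changes were mostly falls. At an adjusted p under 0.05 (edgeR quasi-likelihood test, Benjamini-Hochberg), 621 of 13734 genes tested differed, 4.52%. Of these, 287 rose (2.09%) and 334 fell (2.43%). The order of these counts turned in 5 of 22 alternatives: 599 rises and 592 falls with DESeq2, 247 and 235 without drug replicate 1, 215 and 194 without drug replicate 2, 419 and 417 without dexamethasone replicate 2, and 375 and 204 in libraries 3 and 4 alone. The median log2 change was 0.81 among risers and -1.24 among fallers. At least 4-fold changes numbered 31 rises and 101 falls, and at least 8-fold changes 11 rises and 33 falls. Where the higher group averaged 2 CPM or more, at least 4-fold changes numbered 24 rises and 50 falls. The values of the 2 groups did not overlap in 604 of the 621 genes, against 15.7% of all genes tested. For genes without a call the 95% interval of the log2 change reached a median of 0.43 to either side, and in 71.7% of them it lay within a 2-fold change either way. By the same edgeR test, 2887 of the 13734 genes had an unadjusted p under 0.05. The share called is thus no estimate of all genes that responded.

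The count of changed genes fell when any vehicle or drug library was left out. It was 358, 295 and 374 without vehicle replicates 2, 3 and 4, and 409, 379 and 322 without drug replicates 2, 3 and 4. Of the 621 genes, 219 were called in each of the 8 fits that left out 1 vehicle or drug library, 97 higher and 122 lower. These had a median absolute log2 change of 1.58, against 0.81 for the genes lost in at least 1 such fit. No gene of the 621 changed sign in any of the 8, which was nearly certain for genes picked by their difference between these same libraries. Spread within the vehicle and drug groups was alike, with a median SD per gene of 0.213 with vehicle and 0.197 with the drug. These are on the log2(CPM + 1) scale, where CPM is the count scaled to library size. The dexamethasone libraries, which shared the estimate of spread, had a median of 0.246. With the 8 compared libraries alone, 775 genes were called.

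Falls and rises lay at different levels of abundance. Genes were classed by their mean over the 8 libraries. Under 1 CPM, 57 of 1250 genes fell and 9 rose, and from 1 to 10 CPM 149 of 4936 fell and 43 rose. From 10 to 100 CPM the balance was the other way, with 170 of 6478 higher and 104 lower. From 100 to 1000 CPM 64 of 986 rose and 20 fell, the class with the highest share of calls (8.52%). Among the 84 genes at 1000 CPM or more, 1 rose and 4 fell. The median log2 change of all genes in a class went from -0.19 under 1 CPM to 0.13 at 100 to 1000 CPM.

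**Figure D1:**
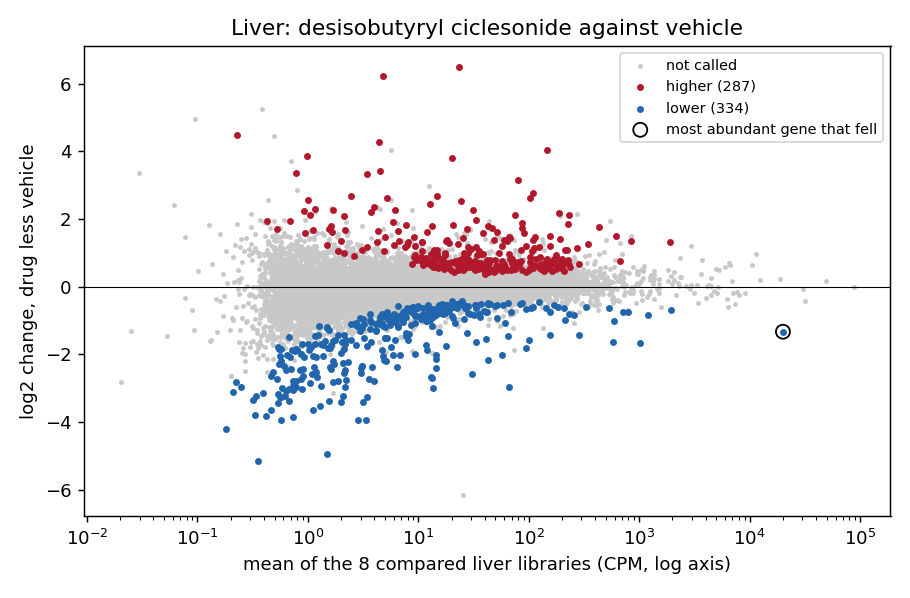
Log2 change in liver (drug less vehicle) against the mean CPM of the 8 compared libraries on a log axis, with 1 dot per gene tested. Most falls beyond a log2 change of -2 lie under 10 CPM, most calls between 100 and 1000 CPM are rises, and the circled gene is the most abundant that fell.

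**Figure D2:**
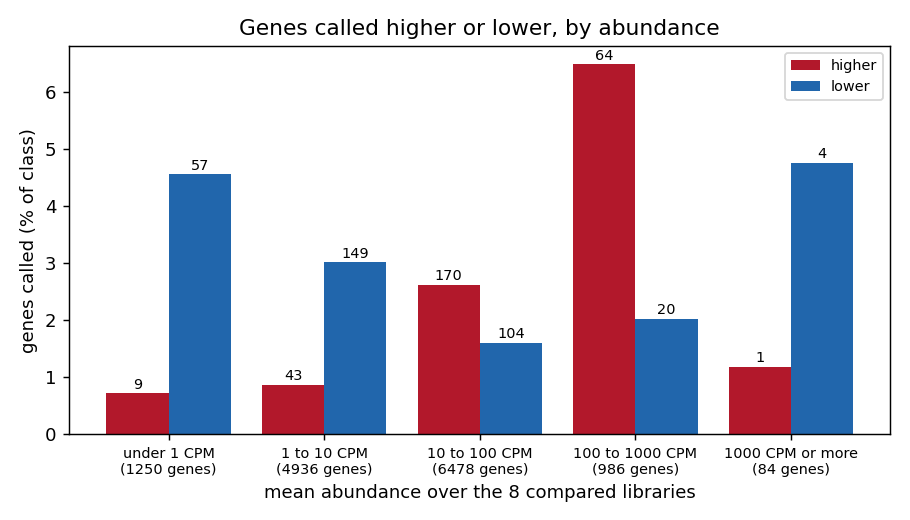
Percent of the genes in each abundance class called higher or lower with the drug, with the number of genes above each bar. Falls outnumber rises in the 2 lowest classes and in the highest, and rises outnumber falls from 10 to 1000 CPM.

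Parted at 10 CPM, 206 genes fell and 52 rose below it, and 128 fell and 235 rose above it. In the 8 fits without 1 vehicle or drug library, falls ranged from 108 to 144 and rises from 21 to 51 below 10 CPM. Above 10 CPM falls ranged from 49 to 92 and rises from 111 to 195. In lung, parted the same way, the drug libraries showed 509 falls and 451 rises among 5545 genes tested below 10 CPM. Above it, 1480 fell and 1444 rose among 10563. The numbers tested in liver are those of the classes given before. The difference between the tissues in this balance was not tested.

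The strongest falls and the strongest rises were both of genes scarce with vehicle. A scarce gene needs a larger change to be called, so this was partly set by the choice of genes. Under 1 CPM all 57 called falls and all 9 called rises were at least 2-fold. The 101 genes that fell by at least 4-fold had a median of 1.92 CPM with vehicle and 0.311 CPM with the drug. Of them, 50 reached a mean of 2 CPM with vehicle. Their median with dexamethasone was 1.43 CPM, and their median log2 change with dexamethasone was -0.11. The 31 genes that rose by at least 4-fold went from a median of 1.31 to 9.05 CPM, and stood at 6.99 CPM with dexamethasone. Their median log2 change was 2.62 with desisobutyryl ciclesonide and 2.43 with dexamethasone. Over all 287 risers, 169 were called higher and 13 lower with dexamethasone (edgeR adjusted p under 0.05). Over all 334 fallers, 138 were called lower and 35 higher. The 2 drugs share one set of vehicle libraries, so these changes are not independent of each other.

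Among smaller changes, 96 genes fell 2-fold to 4-fold, with medians of 5.28 CPM with vehicle, 2.06 with the drug and 2.52 with dexamethasone. A further 81 genes rose 2-fold to 4-fold, with medians of 12.9, 32.1 and 33.9 CPM in the same order. The remaining 137 fallers and 175 risers changed by less than 2-fold, at medians of 21.8 and 32.2 CPM with vehicle.

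Few genes carried most of the counts that were lost, while the gains were spread. Of the summed fall in CPM over the 334 genes, 67.0% came from a single gene, ENSRNOG00000002889, named here after its values were seen. It stood at 23880, 31184, 34264 and 25467 CPM in vehicle replicates 1 to 4 and at 10401, 18988, 7887 and 8323 CPM in drug replicates 1 to 4. The highest drug library lay below the lowest vehicle library. With dexamethasone its libraries stood at 359, 155, 476 and 513 CPM. By mean CPM it ranked 5 among all genes tested in vehicle liver, 9 after desisobutyryl ciclesonide and 288 after dexamethasone. Its log2 change with desisobutyryl ciclesonide was -1.33 (SE 0.35, edgeR adjusted p = 0.0447). That call was lost in 15 of 22 alternatives, among them limma-voom (adjusted p = 0.103), and the adjusted p ranged from 0.00220 to 0.480 with the same direction throughout.

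Without that gene, the other fallers took 1.92% ± 0.0658 (SD, n = 4) of the gene counts with vehicle and 0.980% ± 0.105 with the drug. They took 1.16% ± 0.0370 with dexamethasone. The 287 risers took 1.5% ± 0.126 in vehicle libraries and 2.86% ± 0.259 in those of desisobutyryl ciclesonide. Their share after dexamethasone was 3.22% ± 0.157. Drug replicate 4 had the highest share, 3.25%, and the other 3 drug libraries lay between 2.69% and 2.78%. The gene with the largest gain held 11.9% of the summed rise in CPM, and 23 genes held 50% of it. These shares describe the genes called and are no test.

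**Figure D3:**
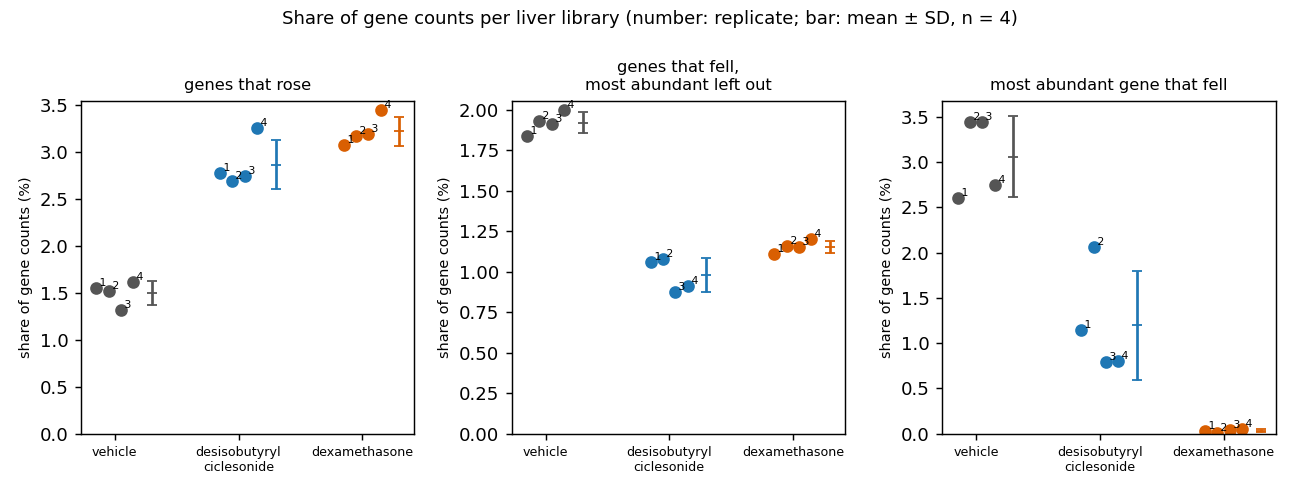
Percent of gene counts per liver library taken by the genes that rose, the genes that fell without the most abundant, and the most abundant gene that fell, with the replicate number beside each dot and mean ± SD (n = 4). Drug and vehicle libraries do not overlap in any panel, and drug replicate 2 at 2.06% lies nearest to vehicle in the last.

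Under the naming rule 268 rises and 258 falls qualified, and the 2 largest each way are named. ENSRNOG00000014008 stood at 0.823, 0.207, 0.167 and 0.853 CPM in vehicle replicates 1 to 4. In drug replicates 1 to 4 it reached 24.3, 15, 48.1 and 98.5 CPM, so every drug library lay far above vehicle and they differed among themselves. The log2 change was 6.49 (SE 0.77, edgeR adjusted p = 0.00140). In dexamethasone liver it stood at 117, 136, 62.2 and 70.9 CPM.

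ENSRNOG00000021513 gave 9 counts over the vehicle libraries, at 0.219, 0, 0.222 and 0.0533 CPM, and 784 over the drug libraries, at 13.4, 6.74, 6.39 and 11.7 CPM. Its drug libraries were closer to each other than those of the previous gene. The log2 change was 6.22 (SE 0.51, edgeR adjusted p = 5.69e-06). With dexamethasone the 4 libraries lay at 3.9, 2.15, 3.51 and 2.25 CPM.

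The falls named by the rule, like the rises, were in genes of low level with vehicle. ENSRNOG00000032085 stood at 1.86, 2.89, 4.11 and 2.77 CPM with vehicle and gave 0, 4, 1 and 2 counts in the drug libraries. The log2 change was -4.95 (SE 0.67, edgeR adjusted p = 0.000996), on 216 counts against 7. With dexamethasone it stood at 8.25, 16.3, 3.02 and 9.25 CPM, and all but replicate 3 lay above every vehicle library (log2 change 1.65, edgeR adjusted p = 0.00647).

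ENSRNOG00000055485 went from 5.16, 4.34, 9 and 6.72 CPM with vehicle to 0.741, 0.371, 0.117 and 0.358 CPM with the drug, with no overlap. The log2 change was -3.96 (SE 0.40, edgeR adjusted p = 5.84e-05). In dexamethasone liver it reached 19.9, 14, 11.4 and 9.54 CPM, above every vehicle library (log2 change 1.12, edgeR adjusted p = 0.00746). Both genes thus fell with one drug and rose with the other, at doses that differed and with the vehicle libraries shared. The difference between the drugs was not tested, and their libraries also differed in the read categories given before. Over all 334 fallers, 138 were called lower with dexamethasone and 35 higher.

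**Figure D4:**
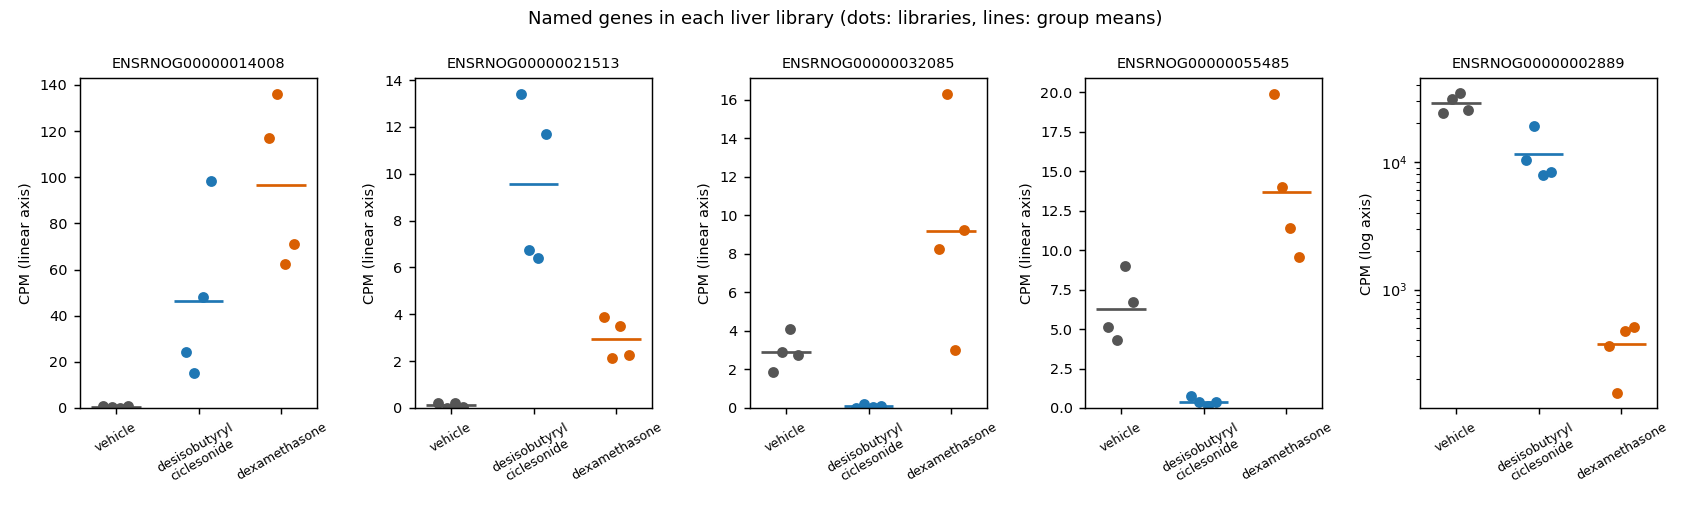
CPM of the 5 named genes in each liver library by treatment, with group means as lines and a log axis for the last gene alone. The 2 rises stand near 0 with vehicle, the next 2 genes stand near 0 with desisobutyryl ciclesonide and highest with dexamethasone, and the last falls in steps from 28699 to 11400 and 375.7 CPM.

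The liver response was set against the lung response to the same drug, measured against lung vehicle libraries with the same division into library series. Within a treatment, liver and lung libraries of equal number deviated together (Pearson r 0.114 to 0.297). The tissues are therefore not independent of each other. Of the liver risers 267 were tested in lung, where 100 rose, 4 fell and 163 were not called, against 11.9% of all genes tested in both tissues called higher there. Of the liver fallers 315 were tested, and 167 fell, 16 rose and 132 were not called, against 13.6% called lower. Genes called the same way in both tissues made up 45.9% of the liver calls and 7.91% of the lung calls among genes tested in both.

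The strongest falls were the ones most often seen in lung as well. Of the 101 genes that fell at least 4-fold in liver 94 were tested in lung, and 67 fell there, with a median log2 change of -1.94 against -2.71 in liver over all 101. For falls of 2-fold to 4-fold, 45 of 88 fell in lung (median -0.60), and for smaller falls 55 of 133 (median -0.29). Of the 17 genes with rises of at least 4-fold that were tested in lung, 7 rose there (median 0.91). Of the 77 with rises of 2-fold to 4-fold, 38 did so (median 0.65), and of the 173 with smaller rises 55 did so (median 0.28). Library series and drug coincide in lung too, so a change common to the tissues cannot be told apart from a difference between the series.

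Tested directly, the response differed between liver and lung in 571 of 13245 genes, 4.31% (edgeR adjusted p under 0.05). That fit did not pair the tissues. With equal-numbered libraries of a treatment as a block, 779 genes differed. Among the 571 genes of the unpaired fit, the liver change was the higher in 265 and the lower in 306. Among the genes changed in liver, 112 of 582 showed such a difference. For 46 of the 267 risers the liver change was the higher, and for 64 of the 315 fallers it was the lower. The others were 1 riser with the lower and 1 faller with the higher liver change. These genes were picked by their liver change, which is part of the difference tested. The direction of these splits was therefore largely set by the choice of genes, and the splits are no test. In the 220 risers and 250 fallers without a called difference, the 95% interval of the difference in log2 change reached medians of 0.52 and 0.69 to either side. Of the 571 genes, 405 were called in lung and not in liver, 82 in liver and not in lung, 30 in both and 54 in neither. Among the 30, the direction was opposite in 20.

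**Figure D5:**
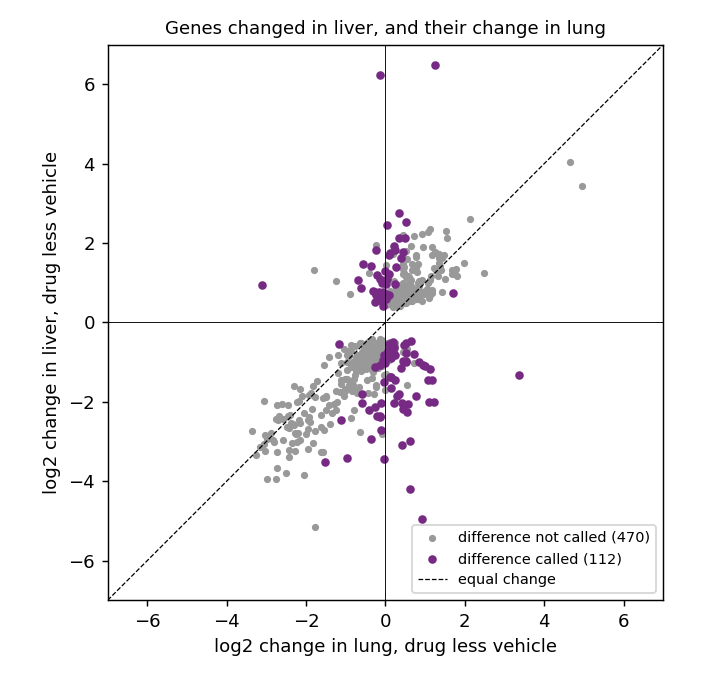
Log2 change in liver against log2 change in lung (drug less vehicle) for the 582 genes changed in liver and tested in both tissues, with the dashed line at equal change. The 112 genes with a called difference lie mostly along the vertical axis, while many strong falls lie near the dashed line. All were picked by their liver change, which favours spread along that axis.

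The named genes fell on both sides of this test. For ENSRNOG00000021513 lung stood at 2.24 ± 1.46 CPM (SD, n = 4) with vehicle and 2.03 ± 0.0923 with the drug, and the liver change exceeded the lung change by 6.41 on the log2 scale (SE 0.72, edgeR adjusted p = 1.66e-05). ENSRNOG00000032085 rose in lung from 12 ± 2.69 to 22.8 ± 3.24 CPM (edgeR adjusted p = 0.00266), opposite to its fall in liver, with a difference of -5.92 (SE 0.67, edgeR adjusted p = 1.66e-05). ENSRNOG00000055485 fell in lung as well, from 3.81 ± 1.26 to 0.482 ± 0.164 CPM, and the difference of -0.995 between tissues was not called (SE 0.56, edgeR adjusted p = 0.367).

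ENSRNOG00000014008 stood at 0.445 ± 0.545 CPM in vehicle lung and 1.11 ± 0.457 with the drug. The difference between tissues was 5.33 (SE 1.20, edgeR adjusted p = 0.0136). That call was lost with limma-voom (4.25, adjusted p = 0.346) and without lung vehicle replicate 4 (3.89, adjusted p = 0.217). ENSRNOG00000002889, so abundant in liver, stood at 1.93, 0.330, 0.459 and 1.36 CPM in vehicle lung. In drug lung its libraries were far apart, at 4.62, 37.5, 0.372 and 0.0663 CPM, and replicate 2 alone held 847 of the counts. Its difference between tissues was -4.70 (SE 1.29, edgeR adjusted p = 0.0394). The call was lost without lung drug replicate 2 (-2.21, adjusted p = 0.201) and with the pup as a block (-3.08, adjusted p = 0.164), and in 16 of 23 alternatives in all.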

How the data were processed

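Libraries were directional (dUTP) and made from poly-A RNA isolated with Trizol, per the labels' protocols. Tools named are HISAT2, HTSeq and cutadapt, with the build mRatBN7.2, per the submitters' processing notes. Versions, settings and use of strand are not given in the sources used here, so counts of overlapping, antisense or near-identical genes are uncertain. The tables deposited by the authors hold unnormalised read counts for 30560 Ensembl identifiers, closed by 5 summary rows of unassigned reads. These rows, 16.8% to 22.7% of entries in the 8 libraries, stayed out of library sizes and tests.

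None of the identifiers matched the RefSeq table of 47357 genes (0 matched), so RefSeq promoters, 36 gene and marker lists, 25 genes set to be reported and a Y-linked covariate could not be used. Members and lists were chosen with earlier results of these data known.

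The 12 liver libraries were fitted with edgeR 4.0.16 in R 4.3.3 (default expression filter, TMM scaling, robust quasi-likelihood, 1 mean per treatment). Standard errors are the absolute log2 change divided by the root of F. CPM uses TMM-scaled library sizes. The difference between tissues was fitted to all 24 libraries over genes passing the filter in each tissue. DESeq2 1.42.0, limma-voom (limma 3.58.1) and other settings were alternatives. The naming rule took the largest log2 changes among called genes without overlap whose higher group averaged 2 CPM or more, and for want of names 2 each way. ENSRNOG00000002889 was added afterwards. Scripts were tested on simulated data, where 58% of 2-fold and 89% of 4-fold liver changes were recovered. The smallest chi-square per degree of freedom among 12 within-group pairs was 16, so all libraries were counted. Within a treatment, liver and lung libraries with equal numbers deviated together in all 12 pairs (Pearson r across 13245 genes, 0.114 to 0.297), 11 of 12 best with their own number (not vehicle replicate 1), and the pup was tried as a block. Numbers do not mark a pup across treatments.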

Additional observations from a re-analysis of the deposited data

Results flagged for a closer look

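The 2 groups, and for the named genes the dexamethasone group too, were searched for a library apart from the other 3. The search covered 41 sets of 4 values, where chance gives about 1 in 20, so a few are expected by chance. Drug replicate 4 stood apart in gene counts (26194384) and in the share of counts taken by the genes that rose (3.25%). Vehicle replicate 2 stood apart in entries that matched more than 1 gene (3.00%).

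The change with the drug differed between liver and lung in 571 genes by the direct edgeR test. Among named genes the liver change less the lung change was 5.33 for ENSRNOG00000014008, 6.405 for ENSRNOG00000021513, -5.919 for ENSRNOG00000032085 and -4.704 for ENSRNOG00000002889.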

How the results depend on the processing

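The count of genes changed in liver (621) was 1191 with DESeq2, which called all 621, and lay between 562 and 775 with RLE scaling, no filter, limma-voom or the 8 compared libraries alone. Leaving out 1 library gave 295 to 836, the upper value without dexamethasone replicate 2. Libraries numbered 1 and 2 alone gave 36. With the replicate number as a block 442 genes were called. Same-numbered vehicle and drug libraries had r of 0.0481, 0.152, -0.0177 and 0.0464, and differently numbered ones -0.111 to 0.0626. These weak values did not show a pairing by number, and could not exclude a structure shared by number. The genes differing between tissues (571) were 967 with DESeq2, 944 in the 16 vehicle and drug libraries and 779 with the pup as a replicate block. Leaving out 1 library gave 439 to 619, and the share with the higher liver change went from 46.4% to between 33.4% and 38.3% when a lung library was left out, and to 57.0% with limma-voom.

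Without 1 library the read category differences were -3.44 to -2.97 percentage points (outside genes), -1.81 to -1.39 (unaligned) and 0.474 to 0.701 (several places), none then able to pass at 3 against 4 (adjusted p of at least 0.0952). For entries matching several genes they were -0.119 to 0.00833, and for low alignment quality 0.0592 to 0.439. The gene lists and the Y-linked covariate were not run. Scarce genes were limited by depth: the 95% interval reached a median log2 of 1.12 to either side under 1 CPM and 0.327 from 10 to 100 CPM.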

Other observations

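On the second principal component of the 8 libraries, which held 15.7% of the variance, vehicle replicates 1 and 2 (12.3 and 9.18) and drug replicates 1 and 2 (18.9 and 16) lay on one side. Vehicle replicates 3 and 4 (-14.8 and -10.4) and drug replicates 3 and 4 (-9.73 and -21.5) lay on the other. The third component, with 13.7%, did not show that division across groups: vehicle replicates 1 and 2 (18.3 and 17.9) lay with drug replicates 3 and 4 (9.41 and 5.69), opposite drug replicates 1 and 2 (-17.8 and -8.58) and vehicle replicates 3 and 4 (-8.72 and -16.2). The first component, with 37.5%, parted the treatments. The labels name no batch, and these fits were chosen after seeing the data. With the division between libraries 1 and 2 and libraries 3 and 4 as a block 595 genes were called. Libraries 1 and 2 alone gave 36 calls (8 rises, 28 falls) and libraries 3 and 4 alone 579 (375 rises, 204 falls), each at 2 against 2 with the spread shared with dexamethasone. Of the 579, 83.2% had the same sign in libraries 1 and 2, with a median log2 change of 0.46 in the called direction against 1.31. In libraries 1 and 2 alone, 6 rises and 15 falls lay above 10 CPM, where rises outnumbered falls in the other fits. The difference between these sets was not tested.

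A search was made for genes on or off alike in liver and lung libraries of the same treatment and number. On meant above 2 CPM and off at most 2 counts. Agreement between the tissues was thus a condition of the search and no result. It gave 6 genes, and the 4 that shared the commonest pattern are described. In liver they summed to 92.1, 85.6, 83.3 and 0 CPM in vehicle replicates 1 to 4, and to 97.7, 88.0, 78.7 and 0.0795 CPM in drug replicates 1 to 4. They were thus on in 3 of 4 libraries of each group, and 0 of the 4 were called. With this state as a covariate, chosen after seeing the data, 590 genes were called.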
